A study of Saccharomyces cerevisiae with 3 samples.

Results

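The 5 histone ORFs HTB1, HTB2, HTZ1, HHO1 and CSE4 of Saccharomyces cerevisiae were taken by name from 5293 listed ORFs, and all 5 are listed in each of the 5 deposited RPKM files. They are YDR224C, YBL002W, YOL012C, YPL127C and YKL049C in the files. The cells were a haploid laboratory strain of mating type a, BY4741, in mid-log growth in the rich medium YPD. Cytoplasmic RNA was sequenced in 3 libraries of this strain and condition, which differ in how the RNA was prepared: unselected total RNA, RNA captured on oligo(dT) Dynabeads (poly(A)-selected), and RNA freed of rRNA with RiboMinus probes. The libraries came from growing cultures with no label of cell cycle stage, and no label says whether they share a culture. With 1 library for each preparation, differences cannot be set against replicate spread, and p-values are not given. Values of ribosome footprints and of Ribo-Zero RNA were not analysed here, so no ratio of footprints to mRNA is given.

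Histones package DNA into nucleosomes, in which DNA is wrapped around an octamer of H2A, H2B, H3 and H4. HTB1 and HTB2 both encode H2B, and each lies next to an H2A gene that is read in the opposite direction from the region between them. HTZ1 encodes H2A.Z, a variant of H2A found at many promoters. HHO1 encodes the linker histone H1, and CSE4 encodes the H3 variant of the centromeric nucleosome, called CENP-A in animals. Most yeast core histone genes are transcribed mainly in S phase. Their mRNAs end in a poly(A) tail, unlike the replication-dependent histone mRNAs of animals, which end in a stem-loop. The core histone genes HTA1, HTA2, HHT1, HHT2, HHF1 and HHF2 were not analysed here.

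The H2B pair is shown by sequence because its genes are close enough that reads could be assigned to either. HTB1 lies on chromosome IV from 914317 to 914712 on the minus strand, and HTB2 on chromosome II from 236492 to 236887 on the plus strand, in the R64 genome, which is sacCer3. Each is 1 uninterrupted coding exon of 396 nt with its stop codon and encodes 131 residues. The coding sequences have 348 of 396 positions in common (87.9%) and the proteins 127 of 131 residues (96.9%). Of the 48 differing positions, 40 lie in codons for a residue that both proteins share. The first 120 coding bases follow, as chrIV:914593-914712 on the minus strand and chrII:236492-236611 on the plus strand, with the 24 differing positions in capitals.
HTB1 start: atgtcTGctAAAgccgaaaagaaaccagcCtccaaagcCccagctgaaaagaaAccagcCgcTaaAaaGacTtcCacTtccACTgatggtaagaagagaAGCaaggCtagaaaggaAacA
HTB2 start: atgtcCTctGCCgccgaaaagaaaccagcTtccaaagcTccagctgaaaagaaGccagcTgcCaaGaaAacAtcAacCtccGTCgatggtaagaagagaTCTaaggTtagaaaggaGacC
The longest identical run is 35 nt, from coding base 196 to 230, and it is the only run of at least 30 nt. It is shown with 15 bases on each side, as chrIV:914468-914532 on the minus strand and chrII:236672-236736 on the plus strand, with the 3 differing positions in capitals.
HTB1 run: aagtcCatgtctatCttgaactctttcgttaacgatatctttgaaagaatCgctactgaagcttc
HTB2 run: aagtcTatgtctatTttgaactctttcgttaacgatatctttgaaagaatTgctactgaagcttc
Of the 367 stretches of 30 bases in each ORF, 6 (1.63%) occur in the other gene. HTZ1, HHO1 and CSE4 share none with any annotated ORF, and no annotated ORF overlaps any of the 5.

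The other 3 ORFs differ in length and composition. HTZ1 (chromosome XV, 303579 to 303983) has 405 nt, CSE4 (chromosome XI, 346075 to 346764) has 690 nt and HHO1 (chromosome XVI, 308828 to 309604) has 777 nt, against a median of 1251 nt for the 5199 ORFs kept. All 3 are on the minus strand and have 1 coding exon. Coding GC content is 40.9% in HTB1, 41.7% in HTB2, 43.0% in HTZ1, 46.2% in HHO1 and 39.7% in CSE4, against a median of 39.6%. HHO1 and HTZ1 have the longest internal runs of A, of 9 and 7 bases, where the median ORF has 6. These runs are shown because oligo(dT) beads bind runs of A. The stretches are chrXVI:309090-309149 and chrXV:303579-303638, both on the minus strand, with the run in capitals.
HHO1 run of A: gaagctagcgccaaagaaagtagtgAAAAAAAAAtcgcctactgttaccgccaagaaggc
HTZ1 run of A: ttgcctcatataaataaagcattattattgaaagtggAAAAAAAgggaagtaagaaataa
The HTZ1 run lies near the end of the ORF, and the stretch ends with its stop codon.

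The libraries hold 4452602, 6467423 and 1317752 reads in listed ORFs for the unselected, poly(A)-selected and RiboMinus RNA, as recovered from the spacing of low values. RPKM is reads per kilobase of coding sequence and per 1000000 reads. The floor of 3 reads that a count of 0 allows corresponds, in a 1 kb ORF, to 0.674, 0.464 and 2.28 RPKM. The strain label was read against mating-type genes. The 5 listed a-specific genes summed to between 1543 and 5156 RPKM per library, and the 3 alpha-specific genes to between 8.96 and 17.5 RPKM. All intervals below are 95% intervals that cover counting error alone, since each preparation has 1 library. Copies of 1 molecule may have been counted more than once, which RPKM values do not show.

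Both H2B genes were abundant in all 3 libraries, and their levels were the highest of the 5. HTB1 had 1076 RPKM in the unselected library, 2324 in the poly(A)-selected library and 444 in the RiboMinus library, from 1883, 5906 and 230 reads. It ranked 112th, 86th and 289th among the 5293 ORFs. HTB2 had 1029, 1813 and 433 RPKM in the same order, from 1801, 4609 and 224 reads. For both genes the poly(A)-selected library was the highest and the RiboMinus library the lowest, and the counting intervals of the 3 libraries do not overlap.

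The H2A.Z gene HTZ1 had 213 RPKM in the unselected library, 405 in the poly(A)-selected library and 157 in the RiboMinus library, from 382, 1052 and 83 reads. The linker histone gene HHO1 had 178, 210.35 and 78.4 RPKM, from 615, 1053 and 80 reads. The centromeric histone gene CSE4 had 43.8, 69.1 and 47.5 RPKM, from 134, 307 and 43 reads. HTZ1 and HHO1 had their lowest value in the RiboMinus library, although for HTZ1 its interval of 125 to 194 RPKM just meets that of the unselected library, of 193 to 236. The CSE4 levels in the unselected and RiboMinus libraries are within each other's counting intervals, of 36.7 to 51.9 and 34.4 to 64.0 RPKM. CSE4 was close to the median listed ORF in those libraries, at 0.920 and 0.918 of its RPKM, and at 1.31 times the median after poly(A) selection. HTB1 stood at 22.6, 44.0 and 8.59 times the median ORF of the unselected, poly(A)-selected and RiboMinus library. Together the 5 ORFs held 0.108% of all unselected reads, 0.200% of the poly(A)-selected reads and 0.0501% of the RiboMinus reads.

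**Figure D1:**
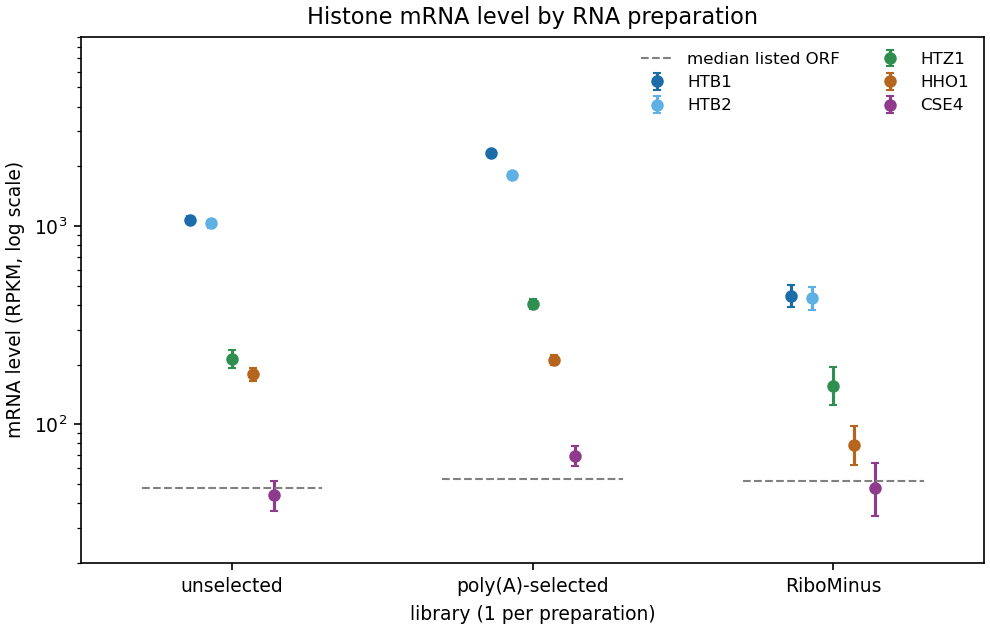
mRNA level in RPKM (log scale) of the 5 histone ORFs in each library, with 95% Poisson intervals of the read count as bars and the median listed ORF as a dashed line. HTB1 and HTB2 are the highest in each library, from 433 to 2324 RPKM, and CSE4 the lowest, from 43.8 to 69.1 RPKM.

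The order of levels per length was HTB1, HTB2, HTZ1, HHO1 and CSE4 in every library, but the steps differed. The H2B genes had nearly equal levels in the unselected library, where the ratio of HTB1 to HTB2 RPKM was 1.05 with an interval of 0.980 to 1.12. In the RiboMinus library it was 1.03, with an interval of 0.850 to 1.24. In neither library did HTB1 and HTB2 differ beyond counting error. After poly(A) selection HTB1 was 1.28 times HTB2, with an interval of 1.23 to 1.33 that lies above 1 and above the interval of the unselected library. How the reads of the shared 30-base stretches were assigned is not known from these values.

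HTZ1 and HHO1 were close in the unselected library, at a ratio of 1.20 (interval 1.05 to 1.36). The ratio was 1.92 (1.76 to 2.10) after poly(A) selection and 1.997 (1.45 to 2.75) in the RiboMinus library. HHO1 exceeded CSE4 by 4.07 times in the unselected library (3.37 to 4.95), 3.04 times after poly(A) selection (2.68 to 3.47) and 1.65 times in the RiboMinus library (1.13 to 2.45). The interval of the RiboMinus ratio lies below those of the other two libraries. HTZ1 mRNA amounted to 10.1% of the summed HTB1 and HTB2 level in the unselected library (interval 9.10% to 11.3%) and 9.78% after poly(A) selection (9.17% to 10.4%). In the RiboMinus library it amounted to 17.9% (14.0% to 22.6%), an interval that lies above those of the other libraries. For CSE4 the same share was 2.08%, 1.67% and 5.42% in the unselected, poly(A)-selected and RiboMinus libraries. HHO1 stood at 8.48% of the H2B sum in the unselected library, 5.08% after poly(A) selection and 8.95% in the RiboMinus library. The HHO1 interval of 6.96% to 11.4% in the RiboMinus library includes the unselected value.

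**Figure D2:**
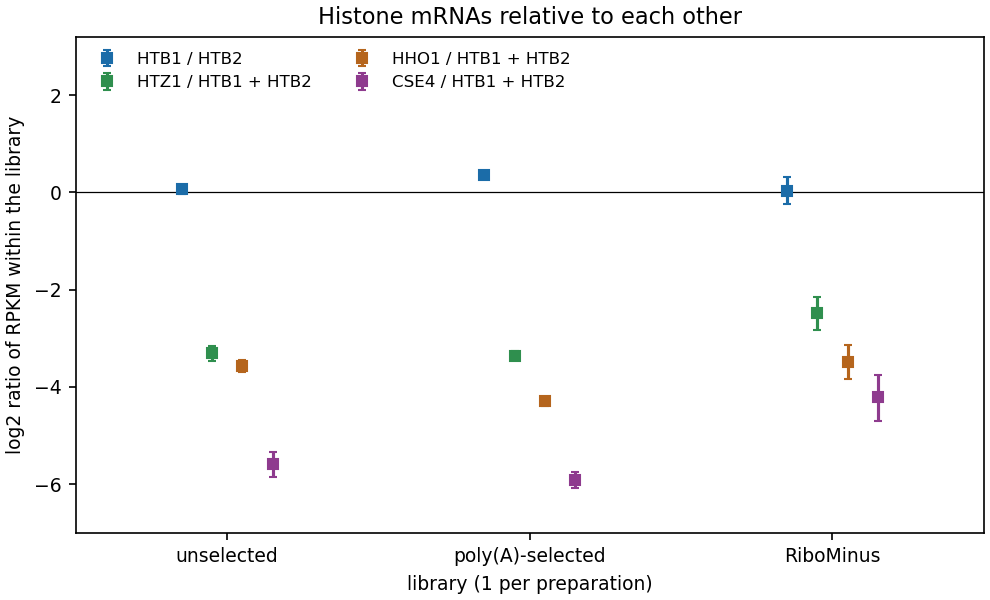
Log2 ratio of RPKM between histone ORFs within each library, with 95% Clopper-Pearson intervals from the reads. HTB1 over HTB2 lies at 0.06 and 0.04 in the unselected and RiboMinus libraries and at 0.36 after poly(A) selection; HTZ1 and CSE4 relative to the H2B sum are highest in the RiboMinus library.

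Setting the poly(A)-selected library against the unselected one asks whether the oligo(dT) beads change the relative level of each histone mRNA. H2B and H2A.Z mRNAs were higher than the median ORF in this comparison, and the linker histone mRNA was at the median. The value used is a centred log2 ratio, which is the log2 of RPKM plus 0.5 in each library, minus the median of that ratio over the ORFs kept. A ratio counts as higher or lower at 1.5-fold, a rule of size. HTB1 had a ratio of 0.87 (interval 0.80 to 0.95), which is 1.83-fold higher. HTZ1 had 0.68 (0.51 to 0.86), which is 1.61-fold higher. HTB2, at 0.58 (0.50 to 0.66) or 1.49-fold, lies just under the threshold. CSE4 had 0.41 (0.12 to 0.72) and HHO1 had -0.0017 (-0.15 to 0.14). So 2 of 5 were at least 1.5-fold higher, where 20.4% of the 5199 ORFs kept were, and 0 of 5 were lower, where 21.3% were. All 5 ORFs passed the minimum of 1 RPKM on average. The median removed was 0.24 log2, and without centring 4 of 5 were higher.

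The short ORFs of the table were higher as a class in this comparison, and the H2B and H2A.Z ORFs are short. Over 5199 ORFs, which share both libraries, coding length and the ratio had a Spearman's rho of -0.759. HTB1, HTB2 and HTZ1 belong to the shortest of 5 length classes of equal size, of 78 to 666 nt, whose median ratio was 0.76. Of the 1040 ORFs in that class, 60.9% had a ratio below that of HTB1, 42.4% below HTZ1 and 34.0% below HTB2. CSE4 and HHO1 belong to the next class, of 666 to 1041 nt, whose median was 0.37. There 54.5% lay below CSE4 and 19.0% below HHO1. With the trend over coding length removed, HTB1 had a ratio of 0.03, HTB2 -0.26, HTZ1 -0.15, CSE4 -0.12 and HHO1 -0.45, and 0 of 5 were past 1.5-fold. HHO1 was the lowest of the 5 with and without that trend. With the trend over mean RPKM removed instead, the ratios were 0.59 for HTB1, 0.50 for HTZ1, 0.45 for CSE4, 0.31 for HTB2 and -0.28 for HHO1. Then 1 of 5 was at least 1.5-fold higher. Over the 5199 ORFs, the longest run of A and the ratio had a Spearman's rho of -0.293, not separated from coding length. Whether internal runs of A affect capture was not tested.

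The H2B genes differed from each other after poly(A) selection. The ratio of HTB1 exceeded that of HTB2 by 0.29 log2 with an exact conditional interval of 0.18 to 0.40. Both ORFs have the same coding length, the lengths of their whole mRNAs were not read, and the cause of the difference was not tested. Intervals of differences were computed for the 10 pairs of the 5 ORFs without adjustment for their number, and 6 of the 10 excluded 0. HHO1 was below each of the others, by 0.87 log2 against HTB1 (interval 0.71 to 1.04), 0.58 against HTB2 (0.41 to 0.75), 0.69 against HTZ1 (0.46 to 0.91) and 0.42 against CSE4 (0.09 to 0.76). The difference between HTB1 and HTZ1, 0.19 log2, had an interval of -0.0011 to 0.37.

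**Figure D3:**
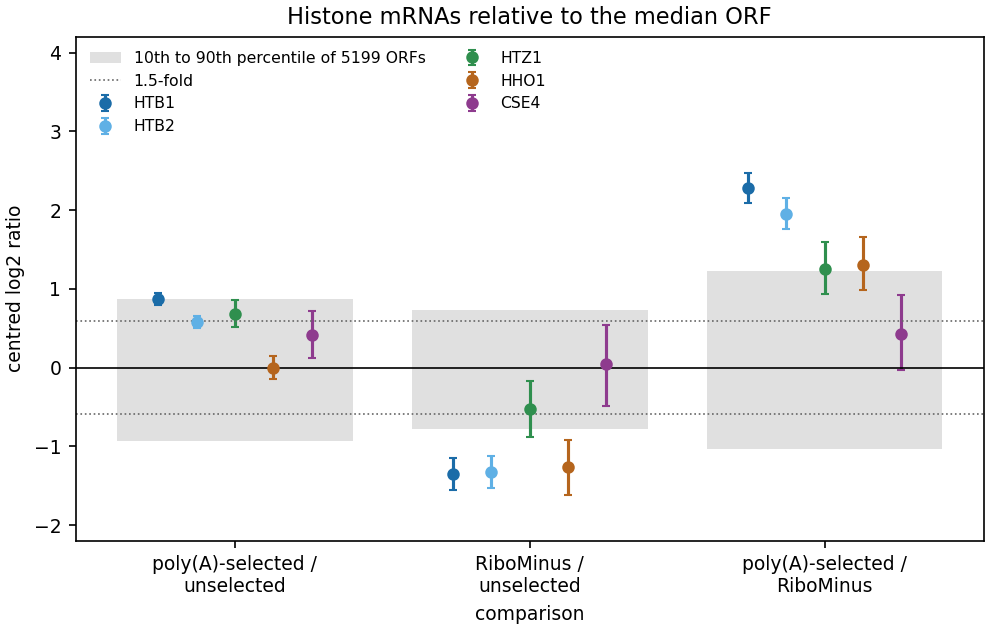
Centred log2 ratio of each histone ORF in the 3 comparisons, with 95% counting intervals; the grey band spans the 10th to 90th percentile of 5199 ORFs and dotted lines mark 1.5-fold. HTB1, HTB2 and HHO1 lie below the band in RiboMinus against unselected, at -1.35, -1.33 and -1.26, and CSE4 lies within the band in each comparison.

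Setting the RiboMinus library against the unselected one asks whether removal of rRNA with this kit alters the relative level of each histone mRNA. The H2B and linker histone mRNAs were lower than the median ORF, H2A.Z mRNA lay closer to it, and CENP-A mRNA was at it. HTB1 had a ratio of -1.35 (interval -1.56 to -1.15), which is 2.55-fold lower, and HTB2 had -1.33 (-1.53 to -1.13), which is 2.51-fold lower. HHO1 had -1.26 (-1.62 to -0.92), 2.39-fold lower. HTZ1 had -0.52 (-0.88 to -0.18), short of 1.5-fold, and CSE4 had 0.04 (-0.49 to 0.55). Thus 3 of 5 were at least 1.5-fold lower, where 16% of the ORFs kept were, and 0 of 5 were higher, where 14.6% were. Of the 5199 ORFs, 148 had a lower ratio than HTB1, 155 than HTB2 and 180 than HHO1. These 3 counts describe ratios that were known when the 5 ORFs were chosen, and they are no independent support. In the shortest length class, 9.13% of the ORFs had a ratio below that of HTB1 and 9.62% below HTB2. In the next length class 3.85% lay below HHO1.

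The 5 ORFs did not have 1 common ratio in this comparison. HTB1 and HTB2 differed by only 0.03 log2, with an interval from -0.31 to 0.26. HHO1 also did not differ from either beyond counting error, with HTB1 minus HHO1 at -0.09 (-0.49 to 0.32) and HTB2 minus HHO1 at -0.06 (-0.46 to 0.35). HTZ1 stood 0.83 log2 above HTB1, with a difference of HTB1 minus HTZ1 of -0.83 (-1.24 to -0.42). HTB1 minus CSE4 was -1.39 (-1.94 to -0.82). HTZ1 minus CSE4 was -0.56 (-1.19 to 0.08), so these variants were not told apart at the depth of 83 and 43 RiboMinus reads. Again 6 of the 10 intervals excluded 0.

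Coding GC content went with the ratio over the ORFs in this comparison, with a Spearman's rho of -0.379 over 5199 ORFs that share both libraries, against 0.050 for coding length. HTB1 and HTB2 lie in the GC class of 40.4% to 42.6%, 1 of 5 classes of equal size, whose median ratio was -0.16. In it 2.40% of the ORFs had a ratio below that of HTB1 and 2.60% below HTB2. HHO1 and HTZ1 lie in the class with the most GC, of 42.6% to 59.1%, whose median was -0.38, and 10.4% of it lay below HHO1 and 41.4% below HTZ1. CSE4, in the middle class, had 55.0% below it. With the trend over GC content removed, the ratios were -1.21 for HTB1, -1.16 for HTB2, -0.79 for HHO1, -0.27 for HTZ1 and 0.05 for CSE4, and the same 3 ORFs were past 1.5-fold. With the trend over mean RPKM removed instead, HTB1 had -1.10 and HTB2 -1.09, each nearer the median ORF than its counting interval. HHO1 had -1.22, and the same 3 ORFs were past 1.5-fold. The longest exact match of the coding strand to the nuclear-coded rRNAs of the R64 genome was 11 or 12 nt in the 5 ORFs. The median ORF of the same length class had 10 or 11 nt. To the reverse complements of these rRNAs the longest match was 9 to 12 nt, against class medians of 10 or 11 nt.

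**Figure D4:**
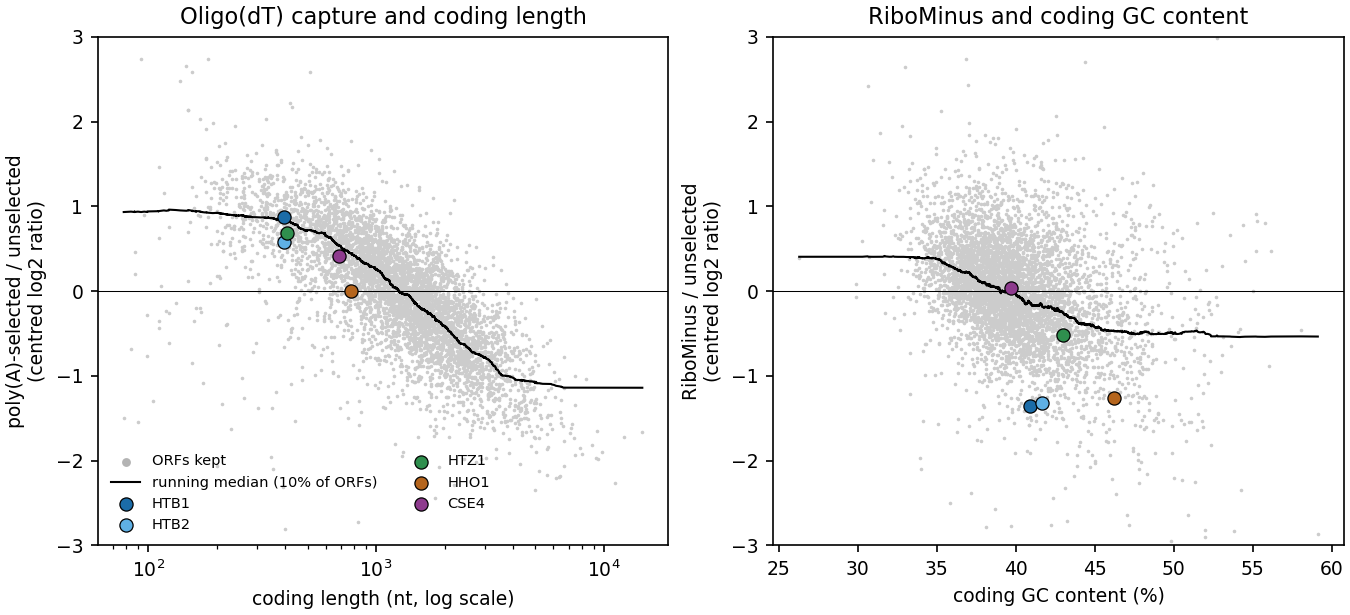
Left, the poly(A)-selected to unselected ratio against coding length (nt, log scale); right, the RiboMinus to unselected ratio against coding GC content (%). Grey points are ORFs kept, the few beyond 3 log2 not drawn, and black lines are running medians over 10% of the ORFs; the H2B and H2A.Z ORFs lie near the line on the left, and HTB1, HTB2 and HHO1 lie below it on the right.

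Setting the poly(A)-selected library directly against the RiboMinus library shares its libraries with both comparisons above and adds no independent evidence. It gives the size of the gap between the preparations that enrich mRNA. HTB1 had a ratio of 2.28 (interval 2.09 to 2.47), which is 4.84-fold higher after poly(A) selection, and HTB2 had 1.96 (1.76 to 2.16), 3.88-fold. HHO1 had 1.31 (0.98 to 1.66) and HTZ1 had 1.26 (0.93 to 1.60). CSE4 had 0.43 (-0.03 to 0.93), which does not exclude the centre. In all, 4 of 5 were at least 1.5-fold higher, where 25.8% of the ORFs kept were, and 0 of 5 were lower, where 24% were. Of the ORFs kept, 89 had a higher ratio than HTB1 and 154 a higher ratio than HTB2. Both counts describe ratios that were known when the 5 ORFs were chosen. Short ORFs as a class were higher here too, with a median ratio of 0.79 in the shortest length class. In that class 92.3% of the ORFs had a ratio below that of HTB1 and 86.8% below HTB2. With the trend over coding length removed the ratios were 1.40 for HTB1, 1.08 for HTB2, 0.81 for HHO1, 0.38 for HTZ1 and -0.13 for CSE4, so HTZ1 was no longer past 1.5-fold. With the trend over GC content removed instead, the ratios were 2.17 for HTB1, 1.79 for HTB2, 0.91 for HTZ1, 0.64 for HHO1 and 0.44 for CSE4. HHO1 then lay below its counting interval and just past 1.5-fold.

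The split of all ORFs into higher and lower depends on the centre, and each ratio above is relative to the median ORF. Among the ORFs past 1.5-fold, 48.9% were higher in the poly(A)-selected against the unselected library, 71.6% without centring and 29.2% with an expression-weighted centre. For RiboMinus against unselected the share was 47.8%, and 71.4% with an expression-weighted centre. For poly(A)-selected against RiboMinus it was 51.8%, and 22.8% with an expression-weighted centre.

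Genes that act with histones were read from 5 lists, of which 69 ORFs were kept. After poly(A) selection 11 of the 69 (15.9%) were at least 1.5-fold higher, against 20.4% of all ORFs kept, and 16 (23.2%) lower, against 21.3%, which is close to the background. Their median ratio was -0.05 against 0 for all ORFs. In the RiboMinus library 9 (13.04%) were higher, against 14.6%, and 2 (2.90%) lower, against 16%, with a median of 0.11. The transcription regulators of histone genes, among them the HIR repressor subunits and the activators Spt10 and the SBF factor Swi4, had a median of -0.77 after poly(A) selection. Of these 10 ORFs 7 were lower, where 21.3% of all ORFs were, and 0 higher, where 20.4% were. Their median coding length was 2512.5 nt, where long ORFs as a class had low ratios. HIR3, the longest HIR subunit gene, had -1.32 (interval -1.51 to -1.18), and HPC2, another subunit gene of that complex, had 0.25 (0.04 to 0.49). In RiboMinus against unselected 0 of the 10 were past 1.5-fold, with HPC2 the lowest at -0.53 (-0.999 to -0.10) and HIR3 the highest at 0.38 (0.19 to 0.58).

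Histone chaperones and assembly factors, 13 of 14 names listed, had 2 ORFs higher and 2 lower after poly(A) selection, no more than the 20.4% and 21.3% of all ORFs. With RiboMinus 0 were past 1.5-fold, where 14.6% of all ORFs were higher and 16% lower. ASF1, a chaperone of H3 and H4, had 1.14 (0.96 to 1.34) and SPT16, a subunit of the FACT complex, had -0.81 (-0.89 to -0.74) after poly(A) selection. Coding length limits this contrast, as ASF1 has 840 nt and SPT16 3108 nt. The medians of their length classes were 0.37 and -0.77. In the RiboMinus library the lowest was MSI1, a subunit of the CAF-1 assembly complex, at -0.58 (-1.15 to -0.07). The highest there was RTT109, the acetyltransferase of H3, at 0.51 (0.01 to 1.03).

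The 14 ORFs of the SWR1 complex, which places H2A.Z in nucleosomes, and its partners had 3 higher and 2 lower after poly(A) selection, where 20.4% and 21.3% of all ORFs were. With RiboMinus 2 were higher and 0 lower, where 14.6% and 16% of all ORFs were. CHZ1, the chaperone of H2A.Z with H2B, was higher than the median ORF in both comparisons, at 1.15 (1.001 to 1.31) and 1.28 (1.07 to 1.49). HTZ1 itself, at 0.68 and -0.52, differed from CHZ1 in the sign of the RiboMinus ratio. SWR1, the ATPase of the complex, had -0.68 (-0.81 to -0.57) after poly(A) selection, and SWC4, another subunit gene, had -0.40 (-0.89 to 0.05) in the RiboMinus library. CHZ1 has 462 nt and SWR1 4545 nt, and their length classes had medians of 0.76 and -0.77 after poly(A) selection. The lowest ORF of the list after poly(A) selection, at -2.80, had under 30 reads in a library and is not named, but the counts include it.

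Centromere genes, with 19 of 20 names listed, had 4 ORFs higher and 3 lower after poly(A) selection, which is near the 20.4% and 21.3% of all ORFs. With RiboMinus 4 were higher and 1 lower, against 14.6% and 16% of all ORFs. SCM3, the chaperone that brings Cse4 to the centromere, had 1.22 (0.73 to 1.83) after poly(A) selection, from 36 reads in the unselected library. CEP3, a subunit of the CBF3 complex that binds centromeric DNA, had -1.25 (-1.65 to -0.93). SCM3 has 672 nt and CEP3 1827 nt, and their length classes had medians of 0.37 and -0.29. In the RiboMinus library WIP1, a small kinetochore protein gene, had 1.69 (1.20 to 2.20). PSH1, the ubiquitin ligase that acts on Cse4, had -0.32 (-0.85 to 0.16) there. Only 13 of the 19 centromere ORFs had at least 30 reads in both of these libraries, while the RiboMinus counts include all 19. The lowest of the 19, at -0.65, was under 30 reads in a library and is not named. The 13 ORFs of H2B ubiquitination had 2 higher and 2 lower after poly(A) selection, against 20.4% and 21.3% of all ORFs. They had 3 higher and 1 lower in the RiboMinus library, against 14.6% and 16%. LGE1, a partner of the ligase Bre1, had -1.03 (-1.55 to -0.57) in the RiboMinus library and was the lowest of that list. SUS1, a small subunit of the deubiquitinating module of SAGA, had 0.91 (0.58 to 1.27) after poly(A) selection and 1.22 (0.75 to 1.69) in the RiboMinus library, the highest of the list in both. CTR9, a subunit of the Paf1 complex, had -0.79 (-0.90 to -0.68) after poly(A) selection. SUS1 has 291 nt and CTR9 3234 nt, and in this comparison both lay near the medians of their length classes, 0.76 and -0.77.

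The ORFs with the most similar pattern were sought by the distance between the pairs of ratios to the unselected library, over 3 libraries and 2409 ORFs with at least 100 reads in each. Nearest to HTB1 were RPL31B, a ribosomal protein gene, at a distance of 0.20 log2, then FPR3 and HCR1 at 0.24 each. HTB2 came 7th in that order, at 0.29. Nearest to HTB2 were VTC1 at 0.05, HCR1 at 0.06 and TIP1 at 0.12, and HTB1 came 9th. VTC1 has 390 nt and a coding GC content of 41.8%, close to the 396 nt and 41.7% of HTB2. Nearest to HHO1 were TIM44 at 0.04, ILV6 at 0.08 and RPL17A at 0.08. HTZ1 was nearest to PUP1, TIF11 and RIB4, at 0.05, 0.11 and 0.11, and CSE4 to PRE8, CAF20 and SFT2, at 0.03, 0.04 and 0.05. HTZ1, HHO1 and CSE4 themselves have 83, 80 and 43 RiboMinus reads, under the minimum set for the ORFs searched. Counting intervals of the RiboMinus ratio, from -0.49 to 0.55 for CSE4 and from -1.53 to -1.13 for HTB2, are wider than these distances, so the order of the nearest ORFs is not resolved.

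**Figure D5:**
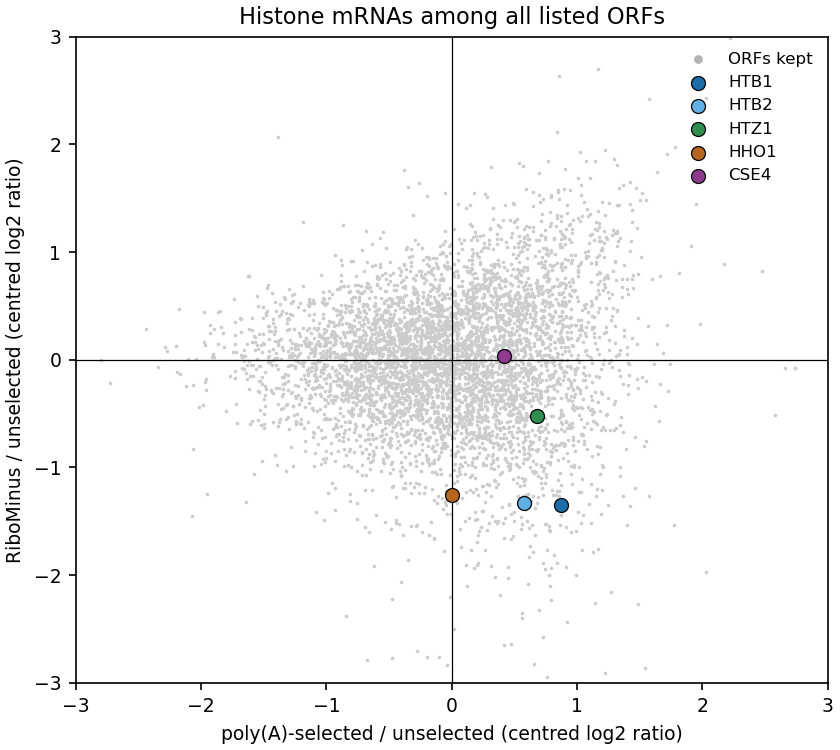
Each kept ORF by its centred log2 ratio of poly(A)-selected (x) and RiboMinus (y) to the unselected library, with the histone ORFs in colour and ORFs beyond 3 log2 not drawn. HTB1 and HTB2 lie at the lower right, HHO1 below the centre at -1.26, and CSE4 close to the horizontal line at 0.04.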

How the data were processed

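RPKM values of 3 RNA-seq libraries, 1 per preparation, were made by the authors and deposited to 2 decimals. The genome sacCer3 and the tools TopHat2 and Bowtie2 are named per the submitters' processing notes; versions, roles, read counter, strand setting and annotation are not given there. Of 2 further per-sample columns, which belong to libraries outside this set, only ORF names were read. All 5293 names were found in the R64 annotation, 203 by restoring a hyphen. RPKM times coding length without the stop codon falls on whole multiples of 1 step per library, which gave the reads; under 100 reads, 99.9%, 99.1% and 99.9% of values lay within 0.1 read of a whole number. That unit was inferred from the values.

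The filter kept 5199 ORFs averaging 1 RPKM or more and removed 94. Ratios carry a pseudocount of 0.5 and understate low genes. Intervals are 95% Clopper-Pearson for ratios, Poisson for levels and exact conditional for differences. Python 3.11.15, numpy 2.4.6, pandas 2.3.3 and scipy 1.17.1 were used, and the scripts were tested on simulated data. Besides the 5 histone ORFs, genes are named where they had the highest or lowest ratio of a list, with at least 30 reads in both libraries, and the 3 nearest ORFs by pattern. The histone ORFs and lists were chosen with earlier results of these data known. Alternatives varied the pseudocount, filter, centre, trend and threshold.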

Additional observations from a re-analysis of the deposited data

How the results depend on the processing

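For poly(A)-selected against unselected, the number of histone ORFs at least 1.5-fold higher moved from 2 to 4 without centring. With a pseudocount of 2 or a minimum mean of 10 RPKM it was 3, as HTB2 just passed 1.5-fold, at 0.591 and 0.585. It was 1 with an expression-weighted centre, with the GC trend removed or with the expression trend removed, and 0 with the length trend removed or a 2-fold threshold. HTZ1 turned from 0.68 to -0.15 with the length trend removed, and that trend was what the setting took out. For RiboMinus against unselected, 3 of 5 were lower under each alternative but 1: with at least 100 reads in every library HTB1 and HTB2 remained, and both were lower. For poly(A)-selected against RiboMinus, 4 higher became 2 among ORFs with at least 100 reads in every library, a setting chosen after the data were seen, which leaves out HTZ1, HHO1 and CSE4. The number of all ORFs past the threshold was 2164, 1592 and 2587 in the 3 comparisons. At 2-fold it was 792, 550 and 1290. Among ORFs with at least 100 reads it was 977, 611 and 1057, and with the length trend removed it was 854 in the first. Of 141 ratios of single histone ORFs under alternatives, 100 stayed within their counting interval and 41 left it, and 9 changed sign. With the length trend removed HTB2 turned from 0.58 to -0.26 and CSE4 from 0.41 to -0.12 in poly(A)-selected against unselected, and CSE4 from 0.43 to -0.13 in poly(A)-selected against RiboMinus. The other sign changes were of CSE4 or HHO1, to between -0.04 and 0.24. Counting only positions outside the shared 30-base stretches cannot move the HTB1 to HTB2 ratio, since both have equally many, and tests nothing. No paired analysis was possible because each preparation has 1 library. RiboMinus depth limits CSE4, HHO1 and HTZ1, with 43, 80 and 83 reads.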

Other observations

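The ORFs that flank the histone genes had values of their own. Upstream of HHO1, 605 bp away and read in the opposite direction, NAN1, a gene of ribosome biogenesis, had 118 RPKM in the unselected library, 68.2 after poly(A) selection and 167 in the RiboMinus library. Its centred log2 ratios to the unselected library were -1.02 and 0.42, where HHO1 had -0.0017 and -1.26. Downstream of HTB2, 265 bp away and converging on it, ECM15 had 305, 851 and 555 RPKM, with ratios of 1.24 and 0.78, where HTB2 had 0.58 and -1.33. CRF1, which converges on HTB1 at 814 bp, had 4.49, 4.75 and 8.67 RPKM. The flanks of CSE4, LPX2 and ELM1, had 7.31 and 21.1 RPKM in the unselected library, below the 43.8 RPKM of CSE4. No difference in this paragraph has a replicate check, and the neighbours were read after the values of the histone ORFs were seen.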
